A study of Mus musculus with 13 samples.

Results

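Nfkb1, Nfkb2, Rel, Rela, Chuk, Ikbkb, Ikbkg and Map3k14, the genes of the main NF-kB subunits and of the kinases that activate them, were chosen by name. All 8 have a row among the 24062 of the table, and all 8 are among the 11867 genes tested, those averaging at least 0 log2 CPM (log2 of reads scaled to the library total). The cells were lineage-negative, Sca-1-negative, Kit-positive (LK) bone marrow cells of the mouse, a fraction rich in committed myeloid progenitors. The study asked how the loss of Tifab and the loss of miR-146a, both genes of the human del(5q) region, act on each other. The donors were TIFAB-/-;miR-146a+/+ (TIFAB_KO, 3 libraries), TIFAB+/+;miR-146a-/- (miR-146a_KO, 3 libraries), TIFAB-/-;miR-146a-/- (dKO, 4 libraries) and TIFAB+/+;miR-146a+/+ (WT, 3 libraries). Every group, WT included, came from Boy/J recipients given 7.0 Gy and then 4.75 Gy 3 h later, and mice of 2 to 5 months are named in the protocol. The null alleles are those of the donor marrow, and the labels name none in the recipients. The protocol names 3 mice per group while dKO has 4 libraries, and no label ties a library to its own mouse, so the p-values measure the spread between libraries.

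NF-kB is a set of dimeric transcription factors held in the cytoplasm by IkB proteins. In the canonical route the IKK complex, made of the kinases IKK-alpha (Chuk) and IKK-beta (Ikbkb) and the scaffold NEMO (Ikbkg), marks IkB for destruction and frees dimers such as p50 with RelA. In the non-canonical route NIK (Map3k14) activates IKK-alpha, which drives the processing of the Nfkb2 product p100 to p52, the partner of RelB. Tifab is known to restrain TRAF6 signalling upstream of IKK, and miR-146a is known to target Traf6 and Irak1 in the same route.

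The libraries held 7.83 to 12.79 M reads and 14455 to 16292 genes with a read. Tifab, the targeted gene, had 3.17, 3.56 and 3.69 log2 CPM in TIFAB_KO and 2.64, 2.10, 1.72 and 3.46 in dKO, against 6.11, 6.15 and 6.01 in miR-146a_KO and 5.34, 5.63 and 5.31 in WT. It fell by 1.95 ± 0.31 (SE) on the log2 scale in TIFAB_KO against WT (limma, adjusted p = 0.038). The row of the miR-146a gene had 0 reads in all 13 libraries, so it checks no label. Of the genes used for sorting, Kit stood at 270 to 459 CPM and Ly6a, which encodes Sca-1, at 0.597 to 5.3 CPM, and of the lineage genes Itgam, at 40.4 to 90 CPM, was the highest. TIFAB_KO replicate 3 and dKO replicate 3 stood apart, with median correlations to the other libraries of 0.947 and 0.951 against 0.962 to 0.974 for the rest. In TIFAB_KO replicate 3, 45S pre-rRNA took 10.74% of reads, the highest share. In dKO replicate 3 the summed level of 9 macrophage and dendritic cell markers was 645 CPM, against 142 to 282 CPM in the other 12 libraries.

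Corrected for transcript length, Nfkb1 and Rela were the most abundant of the 8 transcripts and Nfkb2 and Map3k14 the least. The length used was that of the longest annotated transcript, 7466 bases for Rel and 6994 for Ikbkg, and which transcript the cells use was not tested. Without the correction, Rel averaged 6.70 log2 CPM in WT, above Rela at 6.13 and Ikbkb at 6.10, so its place and the shares below depend on that length. In WT, Nfkb1 averaged 28.5 ± 2.45 CPM per kb (SD, n = 3), Rela 26 ± 2.87, Ikbkb 17.5 ± 3.07, Chuk 14.3 ± 0.876, Rel 13.9 ± 1.21, Ikbkg 5.10 ± 0.397, Nfkb2 3.22 ± 1.01 and Map3k14 1.12 ± 0.133. The WT ranges of Nfkb1 and Rela overlapped, as did those of Ikbkb and Chuk and those of Chuk and Rel, while the other neighbours in this order were separate. Nfkb2 was above Map3k14 in 13 of 13 libraries, and Rel was above Ikbkg in 12 of 13. With Relb, the remaining Rel-family gene, added, Nfkb1 made up 40.7 ± 4.71% of the summed Rel-family level per kb over the 13 libraries, Rela 33.7%, Rel 18.3 ± 3.67%, Nfkb2 4.50 ± 1.25% and Relb 2.87 ± 1.41%. The Nfkb1 share averaged 44.2 ± 7.74% for TIFAB_KO, 39.6 ± 4.77% for miR-146a_KO and 40.5 ± 2.28% for dKO, against 38.4 ± 3.86% for WT (SD), and the library ranges of the 4 groups overlapped. The lowest share of Rel, 10.7%, was in TIFAB_KO replicate 3, the library with the highest share of Nfkb1, 49.9%.

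**Figure D1:**
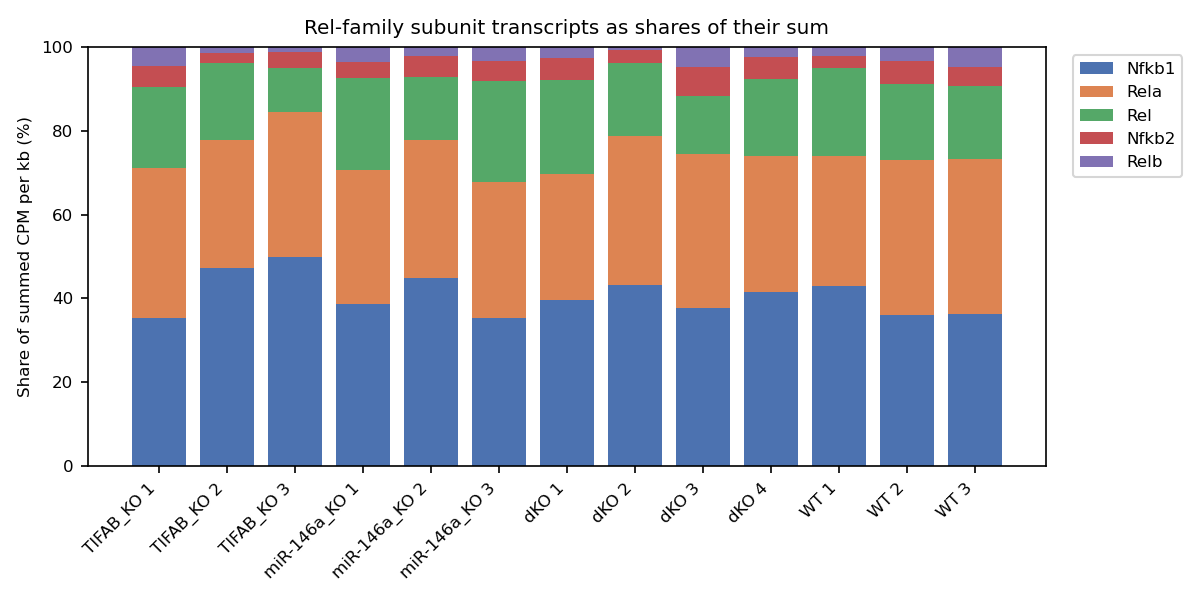
Share of each Rel-family subunit transcript in their summed CPM per kb (vertical axis, %) in each of the 13 libraries (horizontal axis, knockouts first and WT last). Nfkb1 and Rela made up most of the sum in every library, and the Rel band is narrowest in TIFAB_KO replicate 3, at 10.7%.

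None of the 8 genes passed the test in any genotype comparison. By limma with Benjamini-Hochberg adjustment over all genes, 0 of 8 were called in TIFAB_KO against WT, where 0.0169% of all tested genes were called. Likewise 0 of 8 were called in miR-146a_KO against WT (0.0843% of all genes) and in dKO against WT (0.0674% of all genes). At an unadjusted p under 0.05, 0 of 8 passed in each of these 3 comparisons, against 5.11%, 9.53% and 14.1% of all genes. The call count of 0 held under all 25 alternatives tried for each of these comparisons. The data therefore set intervals for the changes and do not show that the levels were equal. The median log2 fold change of the 8 was -0.19 for TIFAB_KO, 0.01 for miR-146a_KO and 0.02 for dKO, each against WT, beside -0.01, 0.09 and 0.08 for all tested genes. In TIFAB_KO the 4 subunits had a median of -0.43 and the 4 kinase genes 0.10. Without TIFAB_KO replicate 3 the subunit values were 0.02 for Nfkb1, -0.34 for Nfkb2, -0.06 for Rel and -0.15 for Rela. Since all 3 comparisons share the WT libraries, their values are not independent of one another. In bulk RNA, fewer cells of a type and less RNA per cell cannot be told apart.

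**Figure D2:**
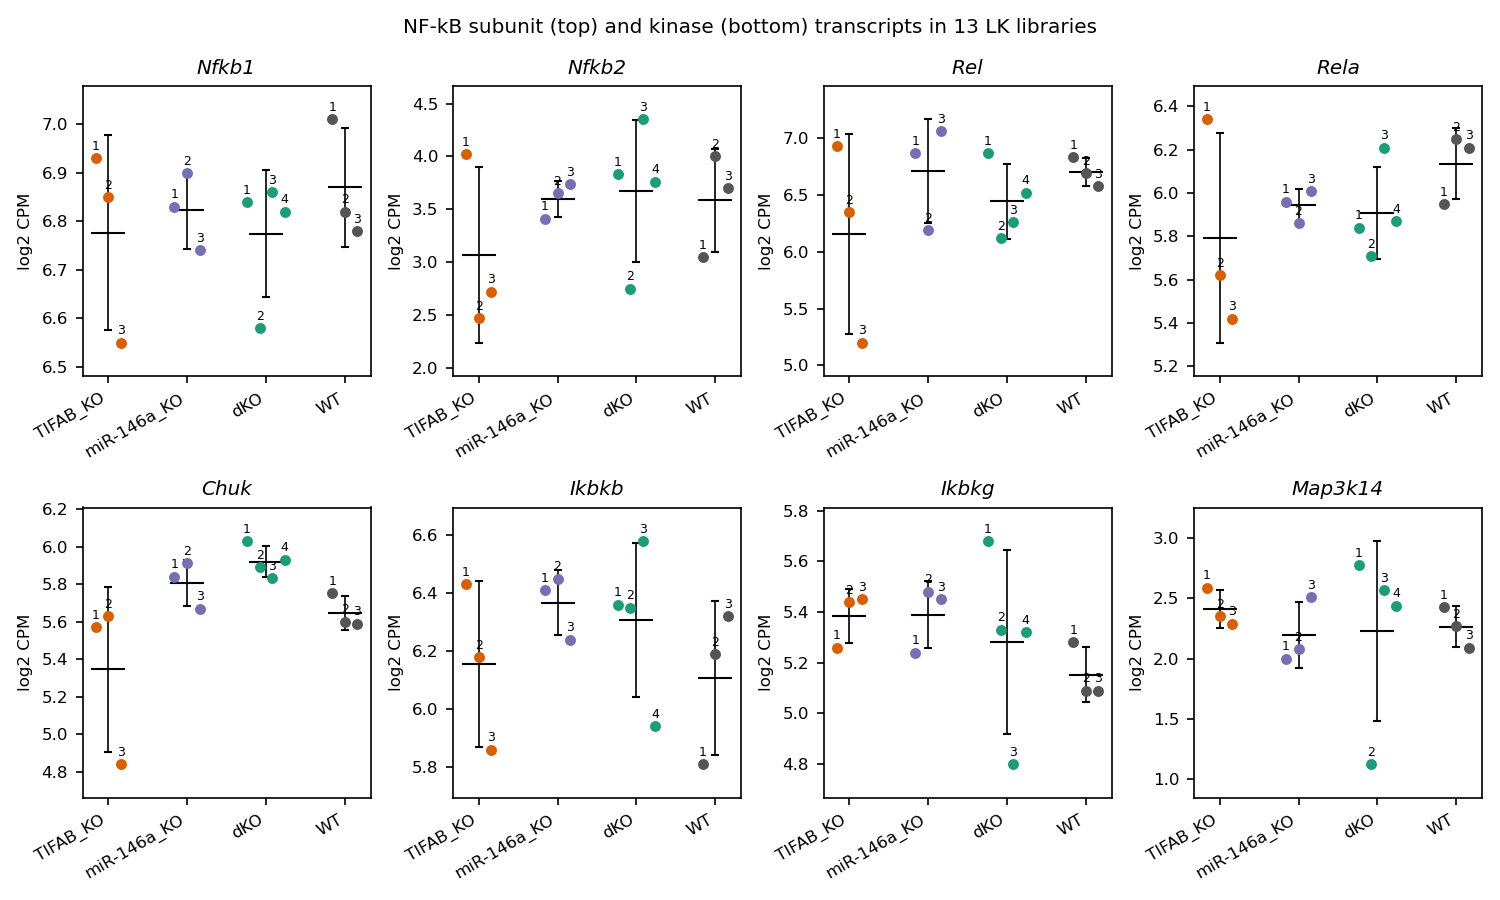
log2 CPM (vertical axis, a separate scale in each panel) of the 8 genes in each library, by group (horizontal axis), with the replicate number beside each point and a bar for the mean ± SD. The library ranges of every knockout overlap those of WT, except that the 4 dKO libraries of Chuk, at 5.83 to 6.03, lie above its 3 WT libraries.

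Among the subunits, Nfkb1 (chr3:135584655-135691547, minus strand, 25 exons, mm10), which encodes p105 and its product p50, was the steadiest. It had 6.93, 6.85 and 6.55 log2 CPM for TIFAB_KO, 6.83, 6.90 and 6.74 for miR-146a_KO and 6.84, 6.58, 6.86 and 6.82 for dKO, against 7.01, 6.82 and 6.78 for WT. All 4 groups overlapped. Its log2 fold changes were -0.09 (95% interval -0.40 to 0.21) for TIFAB_KO, -0.04 (-0.35 to 0.26) for miR-146a_KO and -0.09 (-0.38 to 0.19) for dKO, each against WT. These are the narrowest intervals among the 8 genes.

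Nfkb2 (chr19:46304320-46312385, plus strand), which encodes p100 and p52, varied much more. It had 4.02, 2.47 and 2.72 log2 CPM for TIFAB_KO, 3.41, 3.65 and 3.74 for miR-146a_KO and 3.83, 2.75, 4.35 and 3.76 for dKO, against 3.05, 4.0 and 3.70 for WT. TIFAB_KO replicates 2 and 3 were below every WT library while replicate 1 was above them, so the groups overlapped. The log2 fold change was -0.51 ± 0.39 (SE; 95% interval -1.34 to 0.31) for TIFAB_KO, 0.01 (-0.81 to 0.84) for miR-146a_KO and 0.09 (-0.69 to 0.86) for dKO. The TIFAB_KO value was -0.99 without TIFAB_KO replicate 1 and -0.21 without TIFAB_KO replicate 2. Of its exon bases, 11.6% are shared with an antisense non-coding transcript and 6.52% with Psd on the opposite strand, and since no source states a strand setting for the counting, reads there cannot be assigned with certainty.

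Rel (chr11:23736847-23770970, minus strand, 10 exons), which encodes c-Rel, had 6.93, 6.35 and 5.20 log2 CPM for TIFAB_KO, 6.87, 6.19 and 7.06 for miR-146a_KO and 6.87, 6.12, 6.26 and 6.52 for dKO, against 6.83, 6.69 and 6.58 for WT. The WT libraries lay within 0.25 of each other, while those of TIFAB_KO spanned 1.73. The log2 fold change was -0.54 ± 0.31 (SE; 95% interval -1.20 to 0.12) for TIFAB_KO, 0.01 (-0.65 to 0.67) for miR-146a_KO and -0.26 (-0.87 to 0.36) for dKO. Without TIFAB_KO replicate 3, the library with the highest 45S share, the TIFAB_KO value was -0.06, and without TIFAB_KO replicate 1 it was -0.93.

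Rela (chr19:5637483-5648130, plus strand, 11 exons), which encodes the transactivating subunit RelA, had 6.34, 5.62 and 5.42 log2 CPM for TIFAB_KO, 5.96, 5.86 and 6.01 for miR-146a_KO and 5.84, 5.71, 6.21 and 5.87 for dKO, against 5.95, 6.25 and 6.21 for WT. The highest and the lowest of all 13 libraries were TIFAB_KO replicates 1 and 3. Its mean was below that of WT in each knockout, with log2 fold changes of -0.34 ± 0.20 (SE; 95% interval -0.76 to 0.09) for TIFAB_KO, -0.19 (-0.61 to 0.24) for miR-146a_KO and -0.23 (-0.63 to 0.17) for dKO. The TIFAB_KO value was -0.61 without TIFAB_KO replicate 1 and -0.15 without TIFAB_KO replicate 3. Relb (chr7:19606217-19629438), which encodes the partner of p52, had only 7 to 78 reads per library. Its log2 fold changes were -1.08 (95% interval -2.54 to 0.39) for TIFAB_KO, -0.24 (-1.71 to 1.22) for miR-146a_KO and -0.74 (-2.11 to 0.64) for dKO.

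Nfkb2 and Rel are themselves known NF-kB targets, and the bases before their annotated starts are shown because both hold a match to the kappaB decamer consensus, searched on both strands, in capitals. The sequences are those of RefSeq on GRCm38.p6, for Nfkb2 chr19:46304487-46304736 on the plus strand (the first of 3 listed starts) and for Rel chr11:23770970-23771219 on the minus strand, each 5′ to 3′ and ending at the base before the start.
Nfkb2: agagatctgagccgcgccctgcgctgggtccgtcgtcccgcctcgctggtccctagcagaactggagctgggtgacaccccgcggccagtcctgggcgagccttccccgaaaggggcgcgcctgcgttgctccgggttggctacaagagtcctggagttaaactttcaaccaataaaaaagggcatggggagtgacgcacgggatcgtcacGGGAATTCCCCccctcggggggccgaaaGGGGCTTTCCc
Rel: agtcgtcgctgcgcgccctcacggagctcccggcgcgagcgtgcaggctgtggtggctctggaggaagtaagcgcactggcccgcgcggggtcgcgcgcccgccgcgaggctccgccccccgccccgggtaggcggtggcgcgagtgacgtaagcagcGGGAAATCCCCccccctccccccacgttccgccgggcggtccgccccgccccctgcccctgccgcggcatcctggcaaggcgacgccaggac
The window searched ran from 250 bases before to 50 after a start. In the first window of Nfkb2, overlapping matches began 39 and 38 bases before the start and a separate one 11 bases before it, and in Rel overlapping matches began 92 and 91 bases before it. The other listed windows of Nfkb2 held further matches, which are not shown. Of the 6 members with a listed window, Nfkb2 and Rel held the decamer, while the listed windows of Rela, Chuk, Ikbkg and Map3k14 held no such letters. Of all 27025 genes with a window, 4.35% held it in the first one listed, as did 4.78% of the 8972 tested genes with a window. Tested genes with the decamer varied about as much between libraries of a group as those without it, with median SDs of 0.29 (429 genes) and 0.28 log2 (8543 genes).

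Among the kinases, Chuk (chr19:44073335-44107480, minus strand, 21 exons), which encodes IKK-alpha, had 5.57, 5.63 and 4.84 log2 CPM for TIFAB_KO, 5.84, 5.91 and 5.67 for miR-146a_KO and 6.03, 5.89, 5.83 and 5.93 for dKO, against 5.75, 5.6 and 5.59 for WT. The dKO libraries were all above the WT libraries. Chuk was the only one of the 8 genes whose dKO and WT libraries did not overlap, a pattern held by 12.5% of all tested genes. Its log2 fold change in dKO was 0.27 ± 0.17 (SE; 95% interval -0.09 to 0.64; limma, adjusted p = 0.469). In miR-146a_KO it was 0.16 (-0.23 to 0.55) and in TIFAB_KO -0.30 (-0.69 to 0.09), the last of which was -0.04 without TIFAB_KO replicate 3. No member was free of overlap with WT in TIFAB_KO or in miR-146a_KO, beside 8.52% and 21.9% of all tested genes.

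Ikbkb (chr8:22659212-22706589, minus strand, 21 exons), which encodes IKK-beta, had 6.43, 6.18 and 5.86 log2 CPM for TIFAB_KO, 6.41, 6.45 and 6.24 for miR-146a_KO and 6.36, 6.35, 6.58 and 5.94 for dKO, against 5.81, 6.19 and 6.32 for WT. The groups overlapped, and the log2 fold changes were 0.05 (95% interval -0.34 to 0.45) for TIFAB_KO, 0.26 (-0.13 to 0.66) for miR-146a_KO and 0.20 (-0.17 to 0.57) for dKO. Ikbkg (chrX:74393290-74453854, plus strand, 11 exons), which encodes NEMO, had 5.26, 5.44 and 5.45 log2 CPM for TIFAB_KO, 5.24, 5.48 and 5.45 for miR-146a_KO and 5.68, 5.33, 4.80 and 5.32 for dKO, against 5.28, 5.09 and 5.09 for WT. Its log2 fold changes were 0.23 (-0.17 to 0.63) for TIFAB_KO, 0.24 (-0.17 to 0.64) for miR-146a_KO and 0.13 (-0.25 to 0.50) for dKO. Every knockout mean of Ikbkg was above that of WT, and WT replicate 1 overlapped each group. Of its exon bases 5.15% are shared with G6pdx on the opposite strand.

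Map3k14 (chr11:103219762-103267472, minus strand, 16 exons), which encodes NIK, was the least abundant member, with 17 to 65 reads per library. It had 2.59, 2.35 and 2.29 log2 CPM for TIFAB_KO, 2.00, 2.08 and 2.51 for miR-146a_KO and 2.78, 1.12, 2.57 and 2.44 for dKO, against 2.43, 2.27 and 2.09 for WT. The highest and the lowest library both belonged to dKO, and 2.06% of its exon bases are shared with a non-coding transcript on the same strand. Its log2 fold changes were 0.15 (95% interval -0.65 to 0.94) for TIFAB_KO, -0.07 (-0.86 to 0.72) for miR-146a_KO and -0.04 (-0.78 to 0.70) for dKO, so that changes of up to 0.6 in either direction lie within the interval of each.

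**Figure D3:**
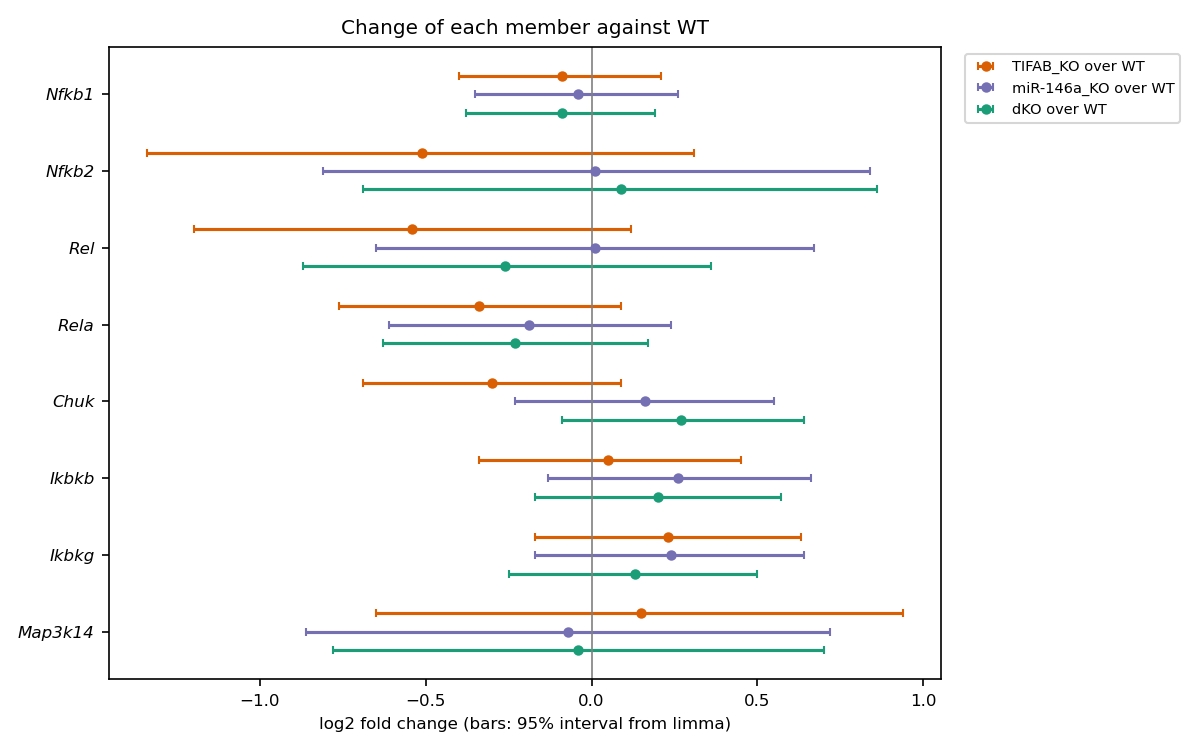
log2 fold change (horizontal axis) of each gene in TIFAB_KO, miR-146a_KO and dKO against WT, with the 95% interval from limma as a bar. All 24 intervals include 0, and those of Nfkb1, the most evenly expressed gene, are the shortest.

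The remaining comparisons of the genotype design concern the double knockout and the averaged effects, and Chuk gave the smallest p of the 8 in 3 of these 5. In dKO against TIFAB_KO, Chuk was 0.57 ± 0.17 (SE) higher on the log2 scale (limma, adjusted p = 0.155). All 4 dKO libraries were above all 3 TIFAB_KO libraries, and Chuk was the only member of which this held, beside 10.7% of all tested genes without overlap. The difference was 0.32 without TIFAB_KO replicate 3, with adjusted p from 0.0624 to 0.688 over the alternatives. In that comparison 0 of 8 members and 0.0337% of all genes were called.

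Averaged over both Tifab backgrounds, the loss of miR-146a went with a Chuk difference of 0.37 ± 0.13 (SE; 95% interval 0.10 to 0.63; limma, adjusted p = 0.109), while 0.733% of all genes and 0 of 8 members were called. Unadjusted p under 0.05 was held by 23.2% of all genes in this comparison. Without TIFAB_KO replicate 2 Chuk passed, at 0.44 (limma, adjusted p = 0.0495). The calls over all genes move with the library left out as well, from 7 to 1040 in this comparison, against 87 in the main fit. Without TIFAB_KO replicate 3 it did not, at 0.24 (limma, adjusted p = 0.234), and over all alternatives the adjusted p ranged from 0.0495 to 0.25. Chuk ran against the 45S share (r = -0.76, rho = -0.57 over 13 libraries, -0.41 without the 2 libraries farthest from the median share), as did Ikbkb (r = -0.63, rho = -0.68, -0.52 without them), and the part of that share in the result was not tested.

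In dKO against miR-146a_KO, Rel gave the smallest p, at -0.26 ± 0.29 (SE; limma, adjusted p = 1), with 0.0506% of all genes and 0 of 8 members called. Averaged over both miR-146a backgrounds, the loss of Tifab went with a Rel difference of -0.40 ± 0.22 (SE; 95% interval -0.85 to 0.05; limma, adjusted p = 1), with 0.0169% of all genes and 0 of 8 members called. The interaction of both losses called 0% of all genes and 0 of 8 members. Its smallest p was that of Chuk, at 0.41 ± 0.25 (SE; 95% interval -0.12 to 0.94; limma, adjusted p = 1).

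The 8 genes differed widely in how much they varied between libraries of one group. The pooled within-group SD was 0.14 log2 for Nfkb1, 0.60 for Nfkb2, 0.51 for Rel, 0.27 for Rela, 0.22 for Chuk, 0.24 for Ikbkb, 0.23 for Ikbkg and 0.47 for Map3k14, and the median over all tested genes was 0.29. SD depends on level, so each gene was set beside the tested genes whose mean lay within 0.5 log2 of its own. Of such genes 12.6% had a smaller SD than Nfkb1, while 98.7% of 1569 had a smaller one than Rel and 95.6% of 1571 than Nfkb2. Relb lay as far out as Rel, at 1.11 (98.7% of 1021 smaller). Rela (74.0%), Ikbkb (65.4%), Map3k14 (51.2%), Chuk (48.0%) and Ikbkg (43.7%) lay nearer the middle. So Rel and Nfkb2 were among the most variable genes of their level, and Nfkb1, of similar level to Rel, was among the steadier ones.

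Much of the spread of Rel and Chuk came from TIFAB_KO replicate 3. Without it, the SD of Rel was 0.34 (93.8% of like genes smaller) and that of Chuk 0.09 (1.37% smaller), while that of Nfkb2 was 0.62 (96.6% smaller). Without all 3 TIFAB_KO libraries the SD of Rela was 0.17 (35.4% smaller), and Nfkb2 (92.3%) and Rel (92.5%) stayed high. TIFAB_KO replicate 3 was the lowest of the 13 libraries for 4 of the 8 genes, and TIFAB_KO replicate 1 was the highest or the second for 5 of them. How often these libraries held such places over all tested genes was not counted, so the counts say nothing particular to the members.

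**Figure D4:**
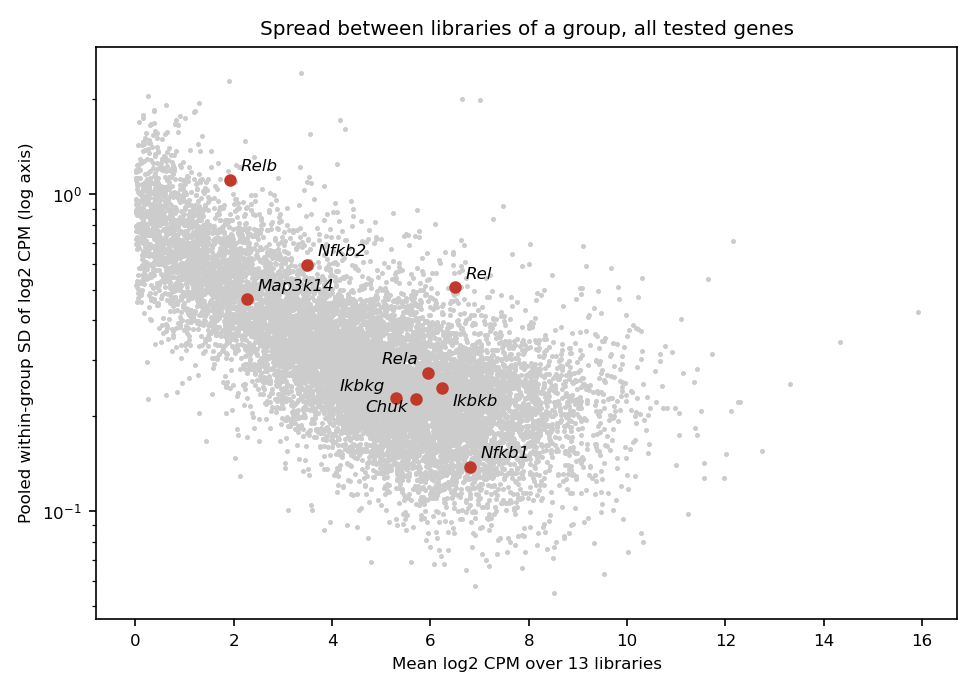
Pooled within-group SD of log2 CPM (vertical log axis) against mean log2 CPM (horizontal axis) for the 11867 tested genes in grey, with the 8 genes and Relb in red. Rel (0.51), Nfkb2 (0.60) and Relb (1.11) lie at the upper edge of the cloud for their level and Nfkb1 (0.14) near its lower side.

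Over the 13 libraries, Rela moved closely with some genes of NF-kB feedback and less so with others. The correlations below are descriptions over libraries that share depth, genotype and cell makeup. Of 10277 genes of sufficient level, the most like Rela was Nfkbia, which encodes IkB-alpha, the inhibitor that RelA itself induces (r = 0.92, rho = 0.91). The next was Nfkbiz, which encodes the nuclear IkB-zeta (r = 0.92, rho = 0.96). Without the 2 libraries farthest from the median of Rela, r was 0.94 with Nfkbia and 0.89 with Nfkbiz, and over deviations from the group means it was 0.94 and 0.93. Tnfaip3, which encodes the deubiquitinase A20, followed Rela as well (r = 0.92, rho = 0.91, and 0.92 without 2 libraries). Of the other genes compared, Nfkbib had r = 0.87 with Rela (0.90 without 2 libraries) and Nfkbid 0.84 (0.77 without them). Nfkbie had 0.71 (0.59 without them), Birc3 0.71 (0.51 without them) and Bcl3 only 0.23 (0.24 without them). Nfkbia stood at 6.17, 5.04 and 4.83 log2 CPM for TIFAB_KO, 6.02, 5.68 and 5.82 for miR-146a_KO and 5.75, 5.64, 6.71 and 5.58 for dKO, against 5.77, 6.45 and 6.47 for WT. TIFAB_KO replicates 2 and 3 were the lowest in both Rela and Nfkbia.

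Of all genes of that level, the most like Nfkb2 was Relb (r = 0.84, rho = 0.71, and 0.77 without 2 libraries), whose products pair in the non-canonical route. Rela and Relb had r = 0.90, and Nfkb2 and Rela had r = 0.81, the highest among the 28 pairs of members. Over these 28 pairs r ranged from -0.63 to 0.81 with a median of 0.34, and 21 were above 0. Several of these fell below 0 without 2 libraries, such as Nfkb1 with Rel (0.64, then -0.07) and Rel with Chuk (0.60, then -0.22). Others stayed above 0, such as Nfkb2 with Rela, at 0.69. No background of other gene pairs was computed. The lowest was Rela with Ikbkg (r = -0.63, rho = -0.75, -0.72 without 2 libraries), and Ikbkg also ran against Tnfaip3 (r = -0.68, rho = -0.81). The correlation of Nfkb1 with Nfkbia was 0.39 and became -0.12 without 2 libraries, so it rests on those libraries.

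The remaining members had other neighbours. Ikbkb came closest to Dgkg (r = 0.96, 0.92 without 2 libraries) and to Tank, an adaptor of the IKK-related kinases (r = 0.95, rho = 0.93, 0.91 without them). It also ran against the total reads of a library (r = -0.79, rho = -0.65, -0.60 without 2 libraries), whose part in the pattern was not tested. Chuk was most like Ago2 and Herc2 (r = 0.94 each, 0.75 without 2 libraries), and Rel like Sde2 (r = 0.97, 0.94 without 2 libraries) and Maml1 (r = 0.94, 0.83 without them). Nfkb1 was most like Samd4b (r = 0.86, rho = 0.47, 0.56 without 2 libraries) and Pkn3 (r = 0.85, rho = 0.79, 0.69 without them). Ikbkg was most like Hspa12b (r = 0.86, rho = 0.63, 0.60 without 2 libraries) and Mycn (r = 0.84, rho = 0.83, 0.64 without them). Map3k14 was most like Slc25a28 (r = 0.88, rho = 0.62, 0.59 without 2 libraries) and Mon1a (r = 0.86, rho = 0.52, 0.63 without them).

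**Figure D5:**
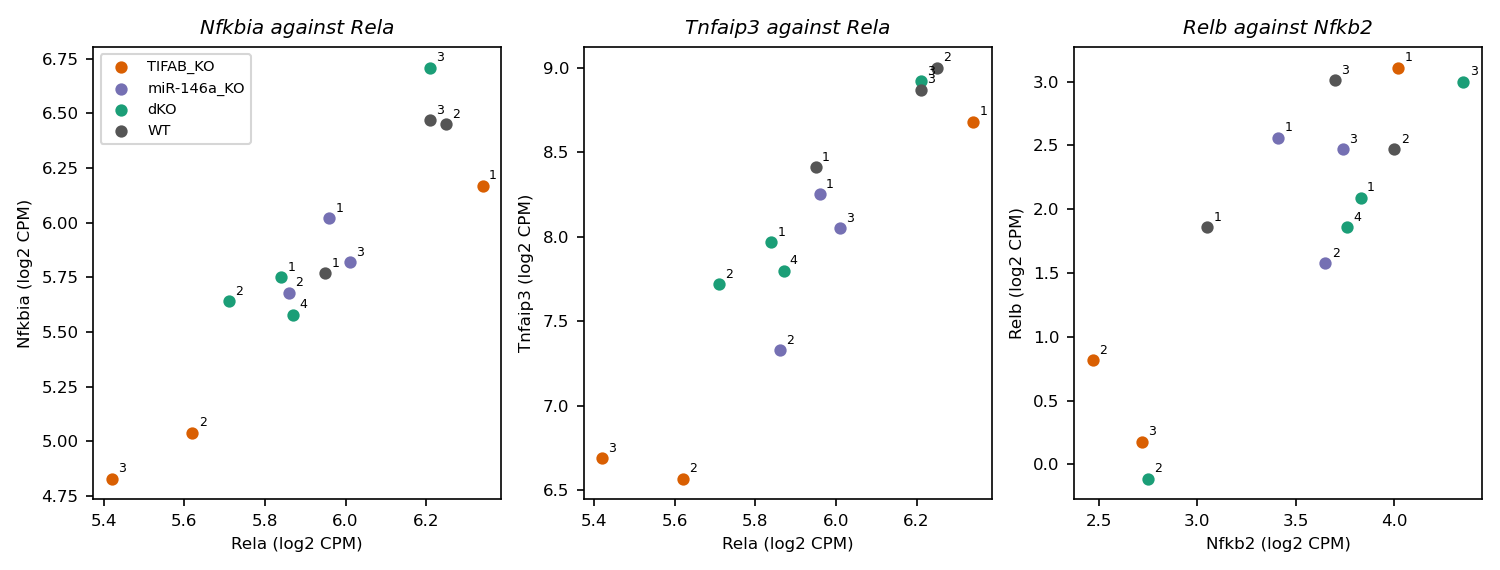
log2 CPM of Nfkbia and of Tnfaip3 against Rela and of Relb against Nfkb2, 1 point per library, coloured by group and numbered by replicate. In the first 2 panels (r = 0.92 each) TIFAB_KO replicates 2 and 3 form the low end, and in the last (r = 0.84) dKO replicate 2 joins them.

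Around the 8 genes, 71 further genes of the NF-kB route were listed by role, of which 69 were tested. Cd40 and Tnfrsf11a, which encode the receptors CD40 and RANK, had too few reads. None of the 69 was called in TIFAB_KO, miR-146a_KO or dKO against WT, and the list medians of -0.05, 0.12 and 0.08 lay beside -0.01, 0.09 and 0.08 for all tested genes. At an unadjusted p under 0.05, 4 were higher and 7 lower in TIFAB_KO, 8 higher and 4 lower in miR-146a_KO, and 6 higher and 2 lower in dKO. The shares of all tested genes were 5.11% for TIFAB_KO, 9.53% for miR-146a_KO and 14.1% for dKO.

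Of the IkB family, 5 of 6 log2 fold changes against WT were below 0 in each knockout, with medians of -0.70 for TIFAB_KO, -0.23 for miR-146a_KO and -0.32 for dKO, and these comparisons share the WT libraries. At an unadjusted p under 0.05 were 3 of 6 in TIFAB_KO, beside 5.11% of all tested genes, and 0 of 6 in each of the others. Nfkbiz had a log2 fold change of -1.26 ± 0.39 (SE; limma, adjusted p = 0.676) in TIFAB_KO, with 7.06, 5.50 and 4.79 log2 CPM in TIFAB_KO against 6.89, 7.20 and 7.04 in WT. Tnfaip3 had the smallest p of the list there, at -1.44 ± 0.41 (SE; limma, adjusted p = 0.585), with 8.68, 6.57 and 6.69 log2 CPM in TIFAB_KO against 8.41, 9.0 and 8.87 in WT. In both, replicates 2 and 3 were below every WT library and replicate 1 was among them. Without TIFAB_KO replicate 1, Nfkbiz (-1.90, limma adjusted p = 0.0106), Tnfaip3 (-2.13, limma adjusted p = 0.00909) and Tnfrsf12a, the TWEAK receptor gene (-2.30, limma adjusted p = 0.044), passed, and no other library left out gave a call in that comparison. That fit leaves out the library that lay among those of WT. It keeps only TIFAB_KO replicates 2 and 3, of which replicate 3 stood apart from the other libraries. Over single libraries left out, 0 to 39 of all genes were called in this comparison, against 2 in the main fit. Tnfrsf1a, the TNF receptor gene, came next by p in TIFAB_KO, at 0.61 ± 0.20 (SE), and did not pass. The summed level of 9 granulocyte-monocyte progenitor markers was 15900 to 17600 CPM in TIFAB_KO, against 7850 to 13500 CPM in WT. That of 9 erythroid markers, of which Hba-a1 and Hbb-b1 were at 0 throughout, was 1110 to 1340 CPM in TIFAB_KO, against 1800 to 2330 CPM in WT. The part of either in these values was not tested.

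In miR-146a_KO the smallest p of the list was that of Ripk1, the RIP1 kinase gene, at 0.60 ± 0.17 (SE; limma, adjusted p = 0.408). Its libraries stood at 6.70, 6.87 and 6.82 log2 CPM in miR-146a_KO against 6.02, 6.28 and 6.29 in WT, without overlap, as held for 21.9% of all tested genes. The erythroid markers summed to 1260 to 1630 CPM in miR-146a_KO, against 1800 to 2330 CPM in WT, and 7 megakaryocyte markers to 437 to 650 CPM, against 701 to 875 CPM in WT, and their part in these values was not tested. In a fit of only these groups Ripk1 passed (limma, adjusted p = 0.0496). Over all alternatives, 4 to 86 of all genes were called in miR-146a_KO against WT, in place of 10 in the main fit. Tnfrsf12a (-1.55 ± 0.56, SE) and Tlr4, the lipopolysaccharide receptor gene (1.03 ± 0.39, SE), came next and did not pass. In dKO, Bcl10, an adaptor gene upstream of IKK, had -0.80 ± 0.23 (SE; limma, adjusted p = 0.211), with 5.71, 4.90, 4.90 and 5.46 log2 CPM in dKO against 6.24, 6.04 and 5.85 in WT, also without overlap, as held for 12.5% of all tested genes. In dKO the megakaryocyte markers summed to 388 to 700 CPM, against 701 to 875 CPM in WT, and their part was not tested. Ripk1 in dKO had 0.54 ± 0.16 (SE) and did not pass. Without dKO replicate 4 it passed, at 0.70 (limma, adjusted p = 0.0186), in a fit that called 336 of all genes in place of 8. Rps3, a ribosomal protein and RelA cofactor gene, had -0.59 ± 0.20 (SE) and did not pass. The IKK-related kinases and their adaptors (Tbk1, Ikbke, Tank, Azi2 and Tbkbp1) had 5 of 5 values above 0 in each knockout, and none passed. Their medians were 0.05 for TIFAB_KO, 0.41 for miR-146a_KO and 0.43 for dKO, beside -0.01, 0.09 and 0.08 for all tested genes. These comparisons share the WT libraries. In TIFAB_KO, Tank (0.02), Azi2 (0.04) and Tbk1 (0.05) were near 0, while Ikbke was at 0.71 and Tbkbp1, with 7 to 60 reads per library, at 0.99.

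Since miR-146a was deleted, the transcripts were searched for its seed match. The mature sequences, from RefSeq on GRCm38.p6, carry bases 2 to 8, the seed, in capitals, and miR-146b-5p shares the seed from its own locus, 30.4 kb beyond the end of Nfkb2 on chromosome 19.
miR-146a-5p: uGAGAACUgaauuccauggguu
miR-146b-5p: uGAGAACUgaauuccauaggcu
Only Rel and Chuk of the 8 genes held the complement of the seed in the annotated 3′ untranslated region (GENCODE M21, GRCm38), with 4 and 1 matches, in capitals below and numbered in order from the stop codon. Their positions are chr11:23741228-23741234, chr11:23739194-23739200, chr11:23739119-23739125 and chr11:23737003-23737009 for Rel and chr19:44073489-44073495 for Chuk, all on the minus strand.
Rel 1: ctcagccttcAGTTCTCctgctctgcc
Rel 2: ggaccccagaAGTTCTCcgcacctcca
Rel 3: tttgctaattAGTTCTCcatttggaaa
Rel 4: tttttttttaAGTTCTCaagatactgg
Chuk: aaatctgaacAGTTCTCattctgaaac
The Chuk match and the last Rel match are followed by A. Such a match was present in 12.8% of the 10778 tested genes with a 3′ untranslated region. The region of Rel is 5418 bases long, and of tested genes with one of similar length 40.6% held at least 1 match. How many of those held 4, as Rel did, was not counted. For Chuk, with 1176 bases, the share with at least 1 match was 8.85%. Ikbkg, with 5495 bases, held none, although 41.7% of genes of like length did. In miR-146a_KO against WT, Rel had a log2 fold change of 0.01 (95% interval -0.65 to 0.67) and Chuk one of 0.16 (-0.23 to 0.55), with all-gene median 0.09. A match in letters is no evidence that the site is used. The miR-146b gene had 2 reads in all libraries together and the miR-146a gene 0, and such libraries do not measure mature miRNAs.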

How the data were processed

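Per the labels' protocols, total RNA of LK cells went through the NuGEN Ovation v2 amplification and Nextera XT library preparation. TopHat, featureCounts, limma and mm10 are named in the submitters' processing notes. Versions, roles and any strand setting are not given in the sources that were used. The deposited values are log2 CPM per gene and library, which the values show to carry 0.5 added reads. Whole reads came back for 100% of them within 0.01 read. Totals were 7.83 to 12.79 M reads per library, so 3 reads stand for 0.235 to 0.383 CPM.

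limma 3.58.1 (R 4.3.3) was fitted to the log2 CPM of all 13 libraries with 1 mean per group and a variance trend (residual degrees of freedom 9, prior 9.53), on the 11867 genes with a mean of at least 0. Adjusted p under 0.05 (Benjamini-Hochberg over these genes within a comparison) was called. The fit was also run on simulated counts, with 1 setting of the spread between libraries for all genes and no library standing apart. That run does not measure how well the fit finds changes in these libraries. Fold changes are the first group minus the second, and understate those of genes with few reads. Levels per kb used the longest transcript of GENCODE M21. The miRNA and promoter sequences are from RefSeq (GRCm38.p6), which listed 6 of the 8 genes' promoters.

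The 8 genes and all lists were chosen with earlier results of these data known. All 8 genes and Relb are named, with fold changes against WT, and in other comparisons the members with an unadjusted p under 0.05 or else the smallest p. Of the pathway list the 3 genes with the smallest p in each comparison against WT are named, and beside each member the 2 genes of highest r, of a mean of at least 1 log2 CPM. Alternatives were the low-value filter, scaling, variance model, pseudocount of 2 reads, voom weights, groups in the fit, replicate block, call threshold and libraries left out.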

Additional observations from a re-analysis of the deposited data

Results flagged for a closer look

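Nfkb1 in dKO replicate 2 stood at 6.58 log2 CPM, below the other dKO libraries at 6.82 to 6.86, and its gap to the nearest was 0.88 of the range of the group, over Dixon's critical value of 0.829 for 4 libraries. The same library was the lowest of all 13 for Map3k14, at 1.12 log2 CPM, and for Relb, at -0.11. Of 10 genes examined in the dKO group, 1 was marked in this way, and chance marks about 1 in 20 groups.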

How the results depend on the processing

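In each comparison 0 of the 8 members were called under the alternatives tried, except that Chuk was called in the averaged loss of miR-146a without TIFAB_KO replicate 2 (0 to 1 calls over the libraries left out). The pathway list had 0 to 3 calls in TIFAB_KO against WT and 0 to 1 in dKO against WT over the libraries left out, 1 in miR-146a_KO against WT in a fit of only the groups compared (Ripk1) and 2 in dKO against WT with a replicate block (Bcl10, Ripk1). Replicate numbers did not pair the libraries (deviations of same-numbered libraries correlated at -0.20 to 0.23, 18 pairs), and the replicate block called no member. Since replicate number 4 occurs in dKO alone, the block also takes that library out of the comparison. It gave 281 calls over all genes in dKO against WT, in place of 8, and leaving out dKO replicate 4 without a block gave 336.

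Values near 0 changed sign. Without TIFAB_KO replicate 3 and dKO replicate 3 together, Nfkb1 in TIFAB_KO was 0.02 and Nfkb2 in dKO -0.14. Under median centring and quantile normalization, Nfkb2 in miR-146a_KO was -0.07 under both, and Rel -0.07 and -0.08. Over single libraries left out, against WT, Nfkb1 in TIFAB_KO ranged from -0.17 to 0.02 and Ikbkb from -0.09 to 0.20. In miR-146a_KO, Nfkb1 ranged from -0.09 to 0.03, Nfkb2 from -0.25 to 0.22, Rel from -0.17 to 0.27 and Map3k14 from -0.23 to 0.03. In dKO, Nfkb2 ranged from -0.18 to 0.39 and Map3k14 from -0.22 to 0.33. The cause was not tested.

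Calls over all genes ranged, over all alternatives, from 0 to 39 in TIFAB_KO, 4 to 86 in miR-146a_KO and 4 to 336 in dKO against WT, from 3 to 278 in dKO against TIFAB_KO, from 2 to 6 in dKO against miR-146a_KO, from 2 to 5 in the averaged loss of Tifab, from 0 to 1 in the interaction and from 7 to 1040 in the averaged loss of miR-146a. Map3k14 has no value under the filter of at least 3 log2 CPM, and averages and the interaction have none in a fit of only the groups compared. The spreads without libraries were added after seeing the data. Depth limits Map3k14 and Relb most.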
